A study of Homo sapiens with 24 samples.

Results

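The balance of each gene's RNA between nucleus and cytoplasm was compared between ERH-ablated and control human cells while translation was blocked with cycloheximide (CHX). The value for a gene was the interaction on the log2 scale, (sgERH nucleus minus sgAAVS1 nucleus) minus (sgERH cytoplasm minus sgAAVS1 cytoplasm). It was fitted on gene sums of the deposited transcript counts in the 12 CHX libraries of the 24 in the series. A positive value means that the RNA lay further towards the nucleus in sgERH cells than in sgAAVS1 cells, and is called a shift towards the nucleus, whichever of the 2 fractions changed. Of 62754 genes in the tables, 17773 had enough counts to be tested.

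The cells were RKO-iCas9, a single-cell-derived clone of the RKO human colon carcinoma line that makes Cas9 only when doxycycline is given. All groups received 100 ng/mL doxycycline for 5 days, were sorted as pools carrying a single guide each, and were separated into nucleus and cytoplasm before poly(A) RNA-seq. The 4 CHX groups, with 3 libraries each, were sgERH nucleus, sgAAVS1 nucleus, sgERH cytoplasm and sgAAVS1 cytoplasm, all exposed to 25 µg/mL CHX in DMSO for 4 h. The sgAAVS1 guide cuts the AAVS1 safe-harbour locus, so the control cells also carried Cas9 cuts. The other 12 libraries came from the same guides and fractions with DMSO alone for 4 h. The knockouts were pools in 1 clone, and the replicates were numbered biological replicates whose p-values measure the spread between these samples.

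A spliced mRNA leaves the nucleus after it has been capped, spliced and polyadenylated, with the exon-junction complex and the TREX complex marking it for export, whereas transcripts that keep introns are often held back and degraded there. In the cytoplasm, nonsense-mediated decay (NMD) removes mRNAs whose stop codon lies upstream of an exon junction, and it needs a translating ribosome. CHX freezes elongating ribosomes, so NMD targets are spared and short-lived mRNAs accumulate. ERH is a small conserved protein without a known nucleic acid-binding domain that associates with splicing and export factors.

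The CHX libraries held 27849344 to 72946068 counts, and no pair of libraries was identical. ERH itself, the targeted gene, had 76.6, 91.1 and 69.0 CPM (counts scaled to a common library total) in sgERH cytoplasm, against 134, 139 and 121 CPM in sgAAVS1 cytoplasm. In the nucleus it had 11.6, 17.05 and 11.2 CPM in sgERH cells, against 14.5, 13.4 and 13.1 CPM in sgAAVS1 cells. The sgERH libraries were thus all lower in the cytoplasm, while the nuclear library of sgERH replicate 2 lay above its 3 controls and went against its label at the RNA level. Both CHX libraries of that number are called the culture labelled sgERH replicate 2, and the main count without them is given below. Mitochondrially encoded mRNAs made up 0.670 ± 0.125% of counts in sgERH nuclei and 0.379 ± 0.0467% in sgAAVS1 nuclei, and 4.43 ± 0.294% in sgERH cytoplasm and 2.87 ± 0.105% in sgAAVS1 cytoplasm (SD, n = 3 each). The summed level of 10 cytoplasmic marker RNAs was 9442 to 11426 CPM in sgERH nuclei against 5447 to 6291 CPM in sgAAVS1 nuclei, and 51365 to 56247 CPM in sgERH cytoplasm against 41982 to 43641 CPM in sgAAVS1 cytoplasm. These markers were mitochondrially encoded mRNAs plus GAPDH, EEF1A1 and TPT1, and the last 3 were not higher in sgERH cytoplasm. GAPDH averaged 1969 CPM in sgERH cytoplasm against 2774 CPM in sgAAVS1 cytoplasm, EEF1A1 13026 against 13420 and TPT1 1349 against 1369. In the nucleus GAPDH averaged 597 CPM in sgERH against 399 CPM in sgAAVS1 cells, EEF1A1 3975 against 2025 and TPT1 340 against 214. The summed level of 5 nuclear marker RNAs was 9745 to 11872 CPM in sgERH nuclei against 11271 to 12326 CPM in sgAAVS1 nuclei, and 844 to 886 CPM in sgERH cytoplasm against 547 to 620 CPM in sgAAVS1 cytoplasm. The part of fraction purity in the shifts below was not tested, and without spike-ins every level is relative within its fraction. Of 13 colon epithelial markers 4 were tested (EPCAM, KRT8, KRT18 and CDX2), while KRT20, CDX1 and CDH1 were close to 0.

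With CHX, 610 genes shifted towards the nucleus and 604 towards the cytoplasm in sgERH cells, where a call needed an adjusted p up to 0.05 and a log2 shift of 1 or more in size (edgeR quasi-likelihood test, Benjamini-Hochberg over all genes). These calls were 6.83% of the genes tested, 3.43% towards the nucleus and 3.4% towards the cytoplasm. The median shift over all genes was 0.05. With scaling factors computed within each fraction the split was 469 towards the nucleus and 700 towards the cytoplasm. Without both fractions of the culture labelled sgERH replicate 2 the calls numbered 1268. A balance, log2 nuclear over cytoplasmic CPM with 0.5 CPM added to each, was computed from the nuclear and the cytoplasmic library of the same guide, treatment and number. Such a set is called a culture here for short. The names of the deposited columns give both its libraries the same running number, which no other culture shares. They do not state that both came from the same cells, so the spread between balances rests on this matching by number. The tests of the shift did not use the matching, and a fit with cultures as blocks gave 1144 calls, of which 1088 were shared with the main fit. The balance did not overlap between the guides for 8509 genes, which is 47.9% of those tested, 27.1% with sgERH higher and 20.8% with sgERH lower. Non-overlap was therefore common in these data and is given below only as a description. A group of libraries was at 0 for 21 of the genes called towards the nucleus and 44 of those called towards the cytoplasm, and the fitted size of their shift is no measure of fold.

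The shift of a gene is the difference of its changes in the 2 fractions, and these arms were distributed unevenly. Of the 610 genes called towards the nucleus, 315 rose in the nucleus without a called change in the cytoplasm (median change 1.41 in the nucleus and 0.00 in the cytoplasm). Only 37 fell in the cytoplasm alone, with medians of 0.15 in the nucleus and -1.33 in the cytoplasm. A further 249 were called for the shift but in neither arm, with medians of 0.78 in the nucleus and -0.40 in the cytoplasm. A further 8 rose in both arms, and a single gene rose in the nucleus and fell in the cytoplasm. Of the 604 genes called towards the cytoplasm, 295 rose in the cytoplasm alone (median 1.73), 90 fell in the nucleus alone (median -1.29), 199 changed in neither arm, 15 rose in both, 4 fell in the nucleus and rose in the cytoplasm, and a single gene, CPS1, fell in both. Over all genes 9.8% were called in the nucleus (6.95% rose and 2.85% fell) and 6.6% in the cytoplasm (5.22% rose and 1.38% fell). The nuclear calls were 1235 higher and 506 lower, and 1811 higher and 325 lower when total counts alone set the scale. Among the classes by arm, a rise in a single fraction was the largest in either direction of the shift, followed by genes called in neither arm.

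**Figure D1:**
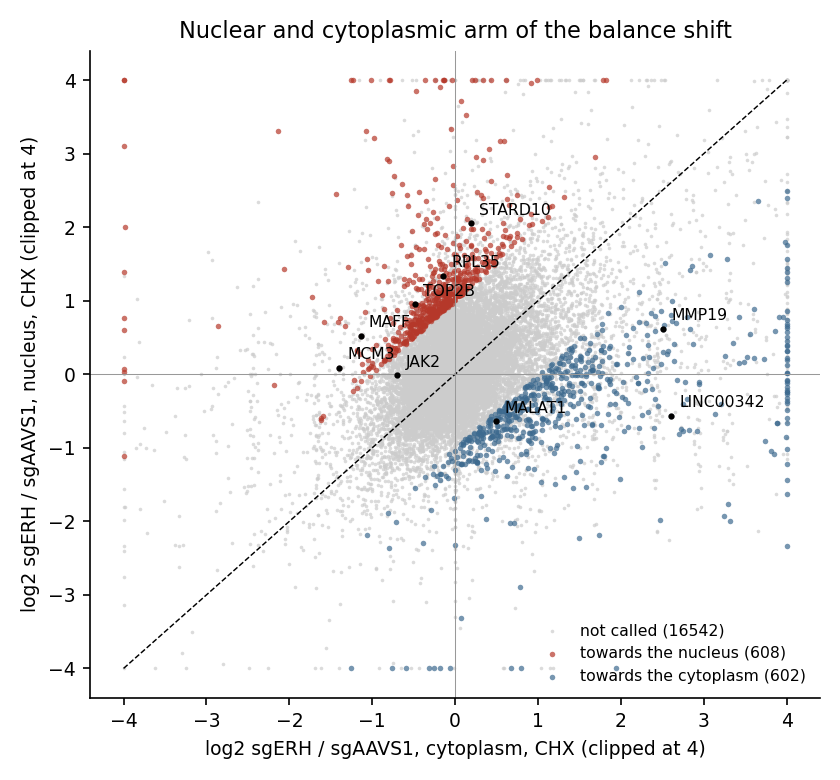
Change in the cytoplasm (x axis) against change in the nucleus (y axis) for each gene with CHX, both as log2 sgERH over sgAAVS1; points mark genes called towards the nucleus, genes called towards the cytoplasm and genes not called, with values beyond 4 drawn at 4 and a few sex-linked genes left out. Most genes called towards the nucleus lie above the middle of the plot and most genes called towards the cytoplasm lie to its right, where the 315 genes with a nuclear rise alone and the 295 with a cytoplasmic rise alone are found.

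JAK2, a kinase of the interferon-gamma receptor, was the transcript the study followed most closely. With CHX it had 44.9, 55.5 and 53.6 CPM in sgERH nuclei against 53.01, 47.6 and 54.7 CPM in sgAAVS1 nuclei, and 14.5, 13.97 and 13.1 CPM in sgERH cytoplasm against 21.5, 22.6 and 23.4 CPM in sgAAVS1 cytoplasm. The nuclear values overlapped and the cytoplasmic values did not. The shift was 0.68 ± 0.13 (SE, edgeR adjusted p = 9.63e-04), made of -0.01 in the nucleus and -0.70 in the cytoplasm, so JAK2 passed the p threshold but not the fold threshold. Its balance was 1.60, 1.95 and 1.99 in sgERH cultures against 1.29, 1.06 and 1.21 in sgAAVS1 cultures.

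PIK3C2A, a class II phosphoinositide 3-kinase, had 297, 326 and 296 CPM in sgERH nuclei against 288, 270 and 310 CPM in sgAAVS1 nuclei, and 99.7, 84.1 and 89.2 CPM in sgERH cytoplasm against 119, 108 and 113 CPM in sgAAVS1 cytoplasm. Its shift was 0.40 ± 0.11 (edgeR adjusted p = 0.0114). HSPA4L, an Hsp110-family chaperone, had 85.3, 87.1 and 84.8 CPM in sgERH cytoplasm against 132, 120 and 128 CPM in sgAAVS1 cytoplasm, with nuclear values that overlapped. Its shift was 0.68 ± 0.13 (edgeR adjusted p = 6.71e-04). Like JAK2, both were lower in every sgERH cytoplasm and stayed under the fold threshold.

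GADD45A, a stress sensor that slows cell growth and a known target of NMD, had 210, 263 and 174 CPM in sgERH nuclei against 149, 158 and 163 CPM in sgAAVS1 nuclei. In the cytoplasm it had 812, 874 and 800 CPM in sgERH cells against 961, 961 and 938 CPM in sgAAVS1 cells. Each sgERH library was above its controls in the nucleus and below them in the cytoplasm, and the shift was 0.66 ± 0.15 (edgeR adjusted p = 0.00299). Of the other genes of this pathway and its controls, MYC, a transcription factor with a short-lived mRNA, shifted by 0.50 (edgeR adjusted p = 0.00461) and the kinase JAK1 by 0.40 (adjusted p = 0.00322), both under the fold threshold. The receptor subunit IFNGR2 (0.30, adjusted p = 0.143), the transcription factor IRF1 (0.24, adjusted p = 0.236) and the receptor subunit IFNGR1 (0.06, adjusted p = 0.864) did not pass the edgeR test, and the balances of IFNGR1 and IFNGR2 overlapped. For ERH the shift was 0.70 ± 0.19 (edgeR adjusted p = 0.0111). None of these 10 genes was called with CHX.

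**Figure D2:**
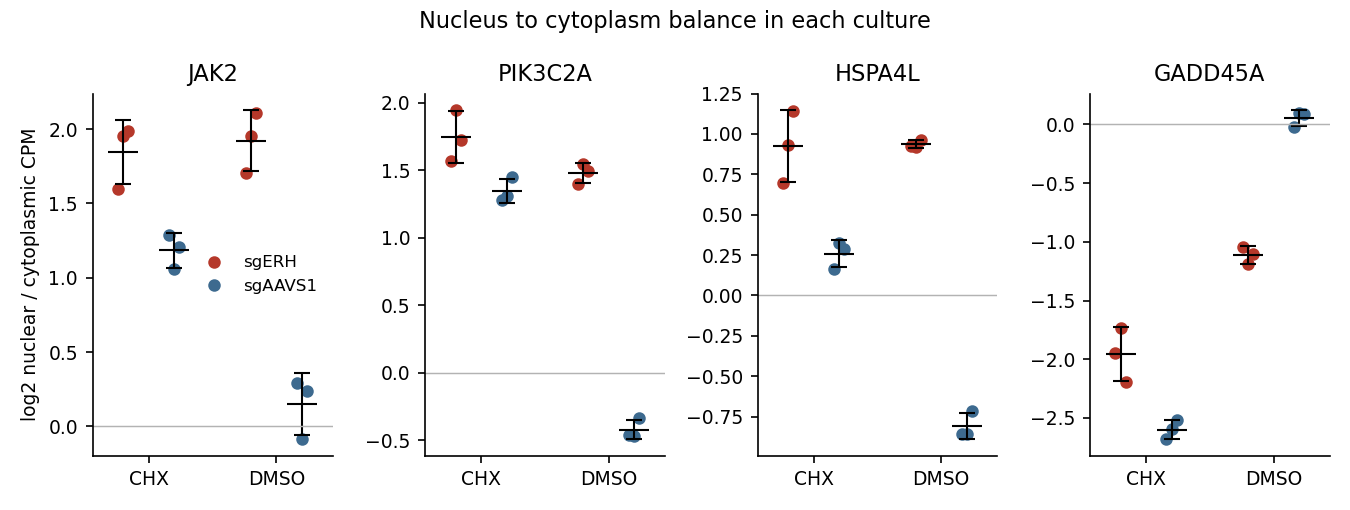
Balance of each culture, log2 nuclear over cytoplasmic CPM with 0.5 CPM added (y axis), for genes the study followed, with sgERH left of sgAAVS1 in each pair points for single cultures and bars for the mean and SD. With CHX the JAK2 cultures sit at 1.60 to 1.99 for sgERH and 1.06 to 1.29 for sgAAVS1, and with DMSO the sgAAVS1 cultures sit lower, at -0.09 to 0.30.

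Intron retention (IR) was read from the deposited intron tables as the IR ratio, the share of intron depth in the total of depth plus spliced reads, and tested as the change of intron depth against spliced reads between the guides. In CHX nuclei 751 of 115807 introns (0.648%) were retained more in sgERH cells and 18912 (16.3%) less, 17% in all, with a median change of -0.95. In DMSO nuclei they numbered 1741 (1.45%) more and 5485 (4.57%) less of 120030, 6.02% in all. Reads crossing an intron end numbered 26.1 ± 1.35 per 100 spliced reads in sgERH nuclei and 38.5 ± 0.590 in sgAAVS1 nuclei (SD, n = 3 each), so the nuclear libraries differed in their share of unspliced RNA as a whole. Without sgAAVS1 nuclear replicate 1, 2 or 3 5713, 8241 or 6586 introns were called, of which 319, 378 or 339 were higher, against 19663 calls with all libraries. In the cytoplasm 281 of 41220 introns (0.682%) were retained more and 138 (0.335%) less, with a median of 0.28. Without sgAAVS1 cytoplasmic replicate 1, 2 or 3 148, 165 or 138 introns were called there in all, and without sgERH cytoplasmic replicate 1 or 3 160 or 176, against 419 with all libraries. With a replicate block 197 were called there (135 more and 62 less), and where the mean IR ratio had to reach 0.1 there were 264 (148 more and 116 less).

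Against that background, 4 of the 15 JAK2 introns tested were retained more in sgERH nuclei. Intron 15 (GRCh38 chr9:5077581-5078305, plus strand) had IR ratios of 0.331, 0.404 and 0.389 in sgERH nuclei against 0.022, 0.026 and 0.008 in sgAAVS1 nuclei, a change of 4.89 ± 0.49 on the log2 scale (SE, edgeR adjusted p = 6.76e-04). Intron 14 (chr9:5073786-5077452) had 0.290, 0.248 and 0.323 in sgERH nuclei against 0.036, 0.034 and 0.014 in sgAAVS1 nuclei (3.78 ± 0.49, edgeR adjusted p = 0.00146). Introns 17 and 18 averaged 0.161 and 0.100 in sgERH nuclei against 0.016 and 0.029 in sgAAVS1 nuclei. Introns 14, 15 and 17 were called without any single library, and intron 18 lost the call without sgAAVS1 nuclear replicate 1, 2 or 3 (edgeR adjusted p up to 0.0932). No JAK2 intron of the 2 tested in the cytoplasm was called. These introns therefore differed in the nucleus while the nuclear level of the transcript overlapped between guides.

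PIK3C2A had 6 of 26 tested introns retained more and 2 retained less in sgERH nuclei, beside the 0.648% and 16.3% of all introns given above. Intron 16 (chr11:17119314-17119785, minus strand) averaged 0.458 in sgERH nuclei against 0.100 in sgAAVS1 nuclei, and intron 14 (chr11:17122334-17122701) 0.253 against 0.031. Introns 13, 14, 15 and 16 were also higher in the cytoplasm, where 10 were tested. Cytoplasmic intron 16 had IR ratios of 0.126, 0.089 and 0.135 in sgERH cells against 0.006, 0.000 and 0.000 in sgAAVS1 cells. In HSPA4L introns 9 and 10 were higher and intron 11 lower among 18 tested in the nucleus, with intron 10 (chr4:127805794-127807995, plus strand) at 0.136 in sgERH nuclei against 0.042 in sgAAVS1 nuclei. GADD45A had no higher intron and 3 overlapping lower ones among 7 tested. In the nucleus the calls of PIK3C2A introns 11, 14, 15 and 16 and HSPA4L intron 10 held without any single library, and in the cytoplasm those of PIK3C2A introns 14 and 16. Of the 6 nuclear libraries, sgERH replicate 2 was the only one that could be left out without losing the calls of PIK3C2A introns 12 and 13 and HSPA4L intron 9, and sgERH replicate 3 the only one for PIK3C2A intron 9 and HSPA4L intron 11. PIK3C2A intron 31 lost its call without sgAAVS1 nuclear replicate 1 or 3. In the cytoplasm the call of PIK3C2A intron 13 was kept only when sgERH replicate 2 was left out, and intron 15 lost its call without sgAAVS1 replicate 1 or 3 or sgERH replicate 3. Of the lower GADD45A introns 2 lost it without sgAAVS1 or sgERH nuclear replicate 2.

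The ends of some introns called as retained more are printed to show the splice sites concerned, from the reference genome GRCh38 in the direction of the transcript, each with the last exon bases and first intron bases at the 5′ splice site or the last intron bases and first exon bases at the 3′ splice site. Capitals mark the first and last dinucleotide of the intron.
JAK2 intron 14, 5′ site: agaGTaagtaaaact
JAK2 intron 14, 3′ site: ttacttatattttaatgcAGata
JAK2 intron 15, 5′ site: ctaGTaagtagtaca
JAK2 intron 15, 3′ site: tgtgcgtttaactctaatAGgaa
JAK2 intron 17, 5′ site: agaGTaagtttatat
JAK2 intron 17, 3′ site: ttgtggttctttaattatAGaag
PIK3C2A intron 14, 5′ site: cagGTaatggtactt
PIK3C2A intron 14, 3′ site: atttctgttaaattttaaAGgtt
PIK3C2A intron 16, 5′ site: aaaGTaagtcaaata
PIK3C2A intron 16, 3′ site: gttttatggtaatcttctAGatt
HSPA4L intron 10, 5′ site: tggGTaagttatttt
HSPA4L intron 10, 3′ site: gttctttccctccattttAGgga
TOP2B intron 22, 5′ site: cagGTcagtgtaaat
TOP2B intron 22, 3′ site: taatttttaaatctttatAGgta
TDRD7 intron 9, 5′ site: cagGTaagaggaact
TDRD7 intron 9, 3′ site: aaagattcaatatttttcAGgct
All of these introns begin with GT and end with AG. Over the 691 numbered introns that were retained more in CHX nuclei, the median share of A and T was 65.8%, against 56.0% over all 85441 numbered introns tested, and 83.8% of them exceeded 60% A and T, against 34.7%. Their median length was 887 bases, against 1289 bases. The letters GTAAGT or GTGAGT stood at the start of 32.6% of them, against 26.9%, and the median number of pyrimidines in the last 20 bases was 13, against 14. The called introns were thus richer in A and T and shorter than the rest, as a description of that set, and no relation between the sequence of the ends and retention was tested.

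Among the transcripts called towards the nucleus, 37 fell in the cytoplasm alone, and among the named genes of 5 CPM or more the largest shifts in this class were those of KYAT1, HCN3, MAFF, TDRD7 and MCM3. MCM3, a subunit of the replicative helicase, had 67.5, 74.5 and 80.8 CPM in sgERH cytoplasm against 190, 198 and 200 CPM in sgAAVS1 cytoplasm. In the nucleus it had 125, 107 and 115 CPM in sgERH cells against 116, 108 and 103 CPM in sgAAVS1 cells. The guides were thus separated widely in the cytoplasm alone, and the shift was 1.49 ± 0.11 (edgeR adjusted p = 9.40e-07). TDRD7, a Tudor-domain protein of germ granules, had 29.5, 29.0 and 23.3 CPM in sgERH cytoplasm against 62.0, 62.1 and 62.3 CPM in sgAAVS1 cytoplasm, with a shift of 1.52 ± 0.17 (adjusted p = 1.24e-05). Its intron 9 (chr9:97470670-97472292, plus strand) averaged an IR ratio of 0.188 in sgERH nuclei against 0.017 in sgAAVS1 nuclei, a call that was lost without sgAAVS1 nuclear replicate 2 or 3 (edgeR adjusted p up to 0.0634), and its cytoplasmic change was -1.19.

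MAFF, a small Maf transcription factor, fell in the cytoplasm to 123, 118 and 112 CPM in sgERH cells, against 257, 266 and 254 CPM in sgAAVS1 cells. In the nucleus it stood higher, at 283, 275 and 256 CPM in sgERH cells against 188, 198 and 178 CPM in sgAAVS1 cells. The arms thus ran in opposite directions, and the shift was 1.67 ± 0.10 (edgeR adjusted p = 4.29e-08). KYAT1, a cysteine-conjugate lyase, had 2.51, 2.81 and 3.23 CPM in sgERH cytoplasm against 8.04, 9.07 and 8.39 CPM in sgAAVS1 cytoplasm (shift 2.29 ± 0.23, edgeR adjusted p = 5.95e-06). HCN3, a hyperpolarization-activated channel, was mostly nuclear, with 53.4, 40.0 and 49.2 CPM in sgERH nuclei and 0.816, 0.559 and 1.12 CPM in sgERH cytoplasm, against 1.93, 1.89 and 2.34 CPM in sgAAVS1 cytoplasm (shift 1.99 ± 0.24, edgeR adjusted p = 2.62e-05).

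TOP2B, a type II DNA topoisomerase, was called for the shift with neither arm past the fold threshold. It had 406, 482 and 407 CPM in sgERH nuclei against 227, 214 and 229 CPM in sgAAVS1 nuclei, and 203, 208 and 189 CPM in sgERH cytoplasm against 284, 271 and 285 CPM in sgAAVS1 cytoplasm. Every sgERH library was above the controls in the nucleus and below them in the cytoplasm, which gave a shift of 1.44 ± 0.11 (edgeR adjusted p = 6.41e-07). Of 34 TOP2B introns tested 5 were retained more and 4 less in sgERH nuclei, beside 0.648% more and 16.3% less of all introns tested. Of those retained more, intron 22 (chr3:25620063-25620681, minus strand) had IR ratios of 0.542, 0.479 and 0.586 in sgERH nuclei. In sgAAVS1 nuclei its ratios were 0.182, 0.215 and 0.212. The calls of introns 11, 20, 21 and 22 held without any single library, and that of intron 9 was kept only when sgERH nuclear replicate 3 was left out. CYFIP2, a subunit of the WAVE actin regulator, had the same form of change, at 105, 105 and 109 CPM in sgERH nuclei against 56.4, 55.6 and 54.2 CPM in sgAAVS1 nuclei (shift 1.39 ± 0.10, edgeR adjusted p = 4.70e-07). DNPH1, a nucleotide hydrolase, NFKBIL1, an inhibitor-like protein of NF-kappaB, and NDUFS6, a complex I subunit, belonged to the same class with shifts of 1.56, 1.45 and 1.39.

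The larger class gained RNA in the nucleus. STARD10, a lipid transfer protein, had 23.5, 19.9 and 20.97 CPM in sgERH nuclei against 4.81, 5.99 and 4.74 CPM in sgAAVS1 nuclei, and 19.4, 22.4 and 22.7 CPM in sgERH cytoplasm against 18.8, 19.7 and 17.99 CPM in sgAAVS1 cytoplasm. The guides separated in the nucleus and overlapped in the cytoplasm, with a shift of 1.86 ± 0.16 (edgeR adjusted p = 2.04e-06). CYP51A1, the sterol demethylase of cholesterol synthesis, had 26.9, 38.7 and 23.9 CPM in sgERH nuclei against 8.59, 6.70 and 7.53 CPM in sgAAVS1 nuclei (shift 1.75 ± 0.19, edgeR adjusted p = 1.11e-05). NTHL1, a DNA glycosylase of base excision repair, shifted by 2.04 ± 0.27 and NDUFA1, a small complex I subunit, by 1.97 ± 0.37.

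Several of the largest shifts belong to transcripts whose counts are uncertain. POC1B-GALNT4 (5.21 ± 1.07) and RPS10-NUDT3 (2.14 ± 0.34) are read-through genes that share exons with their neighbours, BOLA2 (1.90 ± 0.30) has a near-identical copy, and MATR3 (2.71 ± 0.55) is listed under 2 gene IDs. POC1B-GALNT4 also ranged from 0.721 to 6.68 CPM among the 3 sgERH nuclei, against 0 to 0.263 CPM in sgAAVS1 nuclei. RN7SL1, the RNA of the signal recognition particle, which is not polyadenylated and has many copies, had 13.9, 23.1 and 15.1 CPM in sgERH nuclei against 2.02, 3.46 and 3.85 CPM in sgAAVS1 nuclei (2.92 ± 0.36). How the counting divided reads between such copies was not tested.

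A few genes rose in both fractions and more in the nucleus. SAMD9, an interferon-stimulated antiviral factor, had 191, 176 and 225 CPM in sgERH nuclei against 26.96, 21.9 and 27.2 CPM in sgAAVS1 nuclei. In the cytoplasm it had 93.5, 77.5 and 113 CPM in sgERH cells against 28.4, 27.1 and 32.2 CPM in sgAAVS1 cells. Both fractions were thus far apart, and the shift was 1.27 ± 0.18 (edgeR adjusted p = 9.77e-05). CAV2, a caveolin (1.10 ± 0.23), C11orf68 (1.11 ± 0.23) and RASL10B, a Ras-like GTPase (1.14 ± 0.23), followed the same form. MT-RNR1, the small mitochondrial ribosomal RNA, did too, at 1.04 ± 0.15, beside the higher share of mitochondrial mRNA in sgERH libraries given above.

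Most named transcripts that shifted towards the cytoplasm were nuclear RNAs that gained cytoplasmic counts. The non-coding RNA LINC00342 had 22.03, 19.3 and 20.4 CPM in sgERH cytoplasm against 2.64, 4.09 and 3.495 CPM in sgAAVS1 cytoplasm, and 303, 283 and 268 CPM in sgERH nuclei against 440, 391 and 428 CPM in sgAAVS1 nuclei. No library overlapped in either fraction, and the shift was -3.16 ± 0.15 (edgeR adjusted p = 1.36e-08). APPAT, another non-coding RNA, had 20.8, 17.3 and 20.9 CPM in sgERH cytoplasm against 3.95, 3.23 and 3.80 CPM in sgAAVS1 cytoplasm (-2.76 ± 0.15, edgeR adjusted p = 2.08e-08). MIR600HG, a microRNA host transcript, had 2.34, 2.42 and 2.91 CPM in sgERH cytoplasm against 0.482, 0.539 and 0.395 CPM in sgAAVS1 cytoplasm (-2.87 ± 0.27, edgeR adjusted p = 3.53e-06).

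Protein-coding genes with the same form included KCND1, a potassium channel subunit (-2.57 ± 0.28), and GPD1, the cytosolic glycerol-3-phosphate dehydrogenase (-2.33 ± 0.38), both of which stayed below 2 CPM in the cytoplasm. RHBDL1, a rhomboid protease, had a fitted shift of -2.81 ± 0.77 (edgeR adjusted p = 0.0104), but its balances overlapped between guides and its cytoplasmic values stayed below 0.3 CPM. MMP19, a matrix metalloproteinase, rose in the cytoplasm to 8.85, 8.33 and 7.55 CPM in sgERH cells, against 1.21, 1.64 and 1.52 CPM in sgAAVS1 cells (-1.88 ± 0.16, edgeR adjusted p = 2.04e-06). CDK3 and the pseudogene HNRNPCP1 were listed at 0 in all 3 sgAAVS1 cytoplasmic libraries and at 3.48 to 3.65 CPM and 2.09 to 2.58 CPM in the sgERH ones, so their fitted shifts depend on the prior count and give no fold. CDK3 lies within the read-through gene TEN1-CDK3, which shifted the other way, by 1.02. PLA2G4B, a phospholipase A2, likewise had at most 0.0304 CPM in sgAAVS1 cytoplasm.

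MARCHF6, a ubiquitin ligase of the endoplasmic reticulum, fell in the nucleus to 242, 259 and 253 CPM in sgERH cells, against 593, 531 and 564 CPM in sgAAVS1 cells. Its cytoplasmic values were 85.8, 82.3 and 75.4 CPM in sgERH cells against 59.0, 55.0 and 55.2 CPM in sgAAVS1 cells. The guides were separated in both fractions and in opposite directions, with a shift of -1.69 ± 0.10 (edgeR adjusted p = 4.66e-08). GPR135, an orphan receptor (-1.94 ± 0.23), and FAM83E (-1.88 ± 0.33) fell in the nucleus as well. ZBED6, a transcription factor within the gene ZC3H11A, had 37.7, 5.47 and 32.9 CPM in sgERH nuclei. In sgAAVS1 nuclei it had 143, 111 and 136 CPM. Its shift was -1.57 ± 0.56 (edgeR adjusted p = 0.0433), and how counts were divided with its host gene was not tested. TNFRSF10D, a decoy receptor for TRAIL, had 110, 120 and 119 CPM in sgERH nuclei against 208, 199 and 202 CPM in sgAAVS1 nuclei, and 39.2, 46.9 and 38.5 CPM in sgERH cytoplasm against 23.01, 21.8 and 22.4 CPM in sgAAVS1 cytoplasm (-1.69 ± 0.11, edgeR adjusted p = 2.50e-07). CPS1, the carbamoyl phosphate synthetase of the urea cycle, fell in both fractions and more in the nucleus (-1.13 ± 0.27).

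Gene lists are described by their counts of calls and their median shift, beside 3.43% called towards the nucleus, 3.4% called towards the cytoplasm and a median of 0.05 over all genes. Of 78 ribosomal protein genes, which encode the 2 subunits of the ribosome and have short exonic sequences, 25 shifted towards the nucleus and none towards the cytoplasm. Their median shift was 0.92, with medians of 0.79 in the nucleus and -0.11 in the cytoplasm, and 77 of 78 values were above 0. RPL35 had 181, 244 and 191 CPM in sgERH nuclei against 73.4, 89.4 and 79.9 CPM in sgAAVS1 nuclei (1.49 ± 0.16), and RPS15 and RPS19 shifted by 1.36 and 1.35. The count sits on the fold threshold and moved with single libraries: it was 12 without sgERH nuclear replicate 2 and 40 without sgERH nuclear replicate 3, while the median kept between 0.81 and 1.02. It was 13 when TMM was computed within each fraction, and 37 with a transcript length offset.

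Shifts towards the nucleus were also seen for other groups of mRNAs, gathered by gene-name prefix after their values were seen. They were short (median exonic length per list 696 to 1518 bases) and cytoplasmic in sgAAVS1 cells with DMSO (median balance -2.13 to -1.57). Of all genes in the most cytoplasmic bin described below, 16.3% were called towards the nucleus (median 0.68). Of all protein-coding genes, 17.2% were so called up to 1 kb (median 0.63) and 5.75% from 1 to 2 kb (median 0.34). Whether these lists differ from genes of like length and balance was not tested. Of 37 NDUF genes for complex I subunits, 10 shifted towards the nucleus and none towards the cytoplasm (median 0.62). Of 78 mitochondrial ribosomal protein genes, 15 did so and none shifted the other way (median 0.63), and of 49 genes for respiratory complexes III to V, 6 did so (median 0.68). The last count was 15 without sgERH nuclear replicate 3, and the NDUF count was 6 without sgERH nuclear replicate 2 or sgAAVS1 nuclear replicate 1. Of 37 proteasome subunit genes, 3 shifted towards the nucleus (median 0.41). By contrast, none of the 13 mitochondrially encoded mRNAs was called, and their medians were 0.63 in the nucleus and 0.50 in the cytoplasm.

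Genes of DNA replication had a median shift of 0.46 with medians of -0.25 in the nucleus and -0.71 in the cytoplasm. Of 52 measured, 6 fell in the cytoplasm, against 1.38% of all genes, and for the shift 5 were called towards the nucleus and none towards the cytoplasm. Besides MCM3 these were RFC2, a subunit of the clamp loader (1.14 ± 0.14), CDT1, a licensing factor (1.05 ± 0.14), and FEN1 (1.05) and GINS2 (1.02), a flap endonuclease and a helicase subunit. RFC2 had 61.0, 67.3 and 61.3 CPM in sgERH cytoplasm against 104, 112 and 112 CPM in sgAAVS1 cytoplasm. The guides did not overlap there. The count of 5 ranged from 2 to 8 over the omitted libraries and scalings. Of 58 genes of mitosis and the kinetochore 7 fell in the nucleus and 10 in the cytoplasm, against 2.85% and 1.38% of all genes. None of the 58 rose in either, where 6.95% and 5.22% of all genes did, and the medians were -0.51 and -0.69. For the shift 2 were called, the motor KIF4A (1.11) and the spindle factor TPX2 (1.03). Among 71 genes of DNA repair and the checkpoint, 2 were called towards the nucleus, among them XRCC6 of end joining (1.01), and the median was 0.15.

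RNA-processing genes went both ways. Of 62 core spliceosome genes, 4 shifted towards the nucleus and 1 towards the cytoplasm (median 0.46). SART1, a tri-snRNP factor, had 96.4, 101 and 82.2 CPM in sgERH nuclei against 52.7, 52.8 and 49.5 CPM in sgAAVS1 nuclei (1.17 ± 0.11), and SNRPD2 and SNRPA, of the Sm ring and the U1 particle, shifted by 1.16 and 1.13. RBM25, a U1-associated splicing factor, had 790, 1032 and 881 CPM in sgERH nuclei against 1673, 1568 and 1715 CPM in sgAAVS1 nuclei (-1.02 ± 0.13). Of 48 genes of the exon-junction complex, TREX and mRNA export, 3 shifted towards the nucleus and 2 towards the cytoplasm. The export adaptors ALYREF and POLDIP3 shifted towards the nucleus (1.23 ± 0.17 and 1.18 ± 0.12), as did THOC7 (1.05 ± 0.28), which was 0.65 without sgERH nuclear replicate 2. CHTOP, a partner of the TREX complex, and MCM3AP, which encodes the export factor GANP, shifted towards the cytoplasm (-1.04 ± 0.10 and -1.21 ± 0.12). CHTOP had 145, 164 and 141 CPM in sgERH nuclei against 304, 300 and 321 CPM in sgAAVS1 nuclei, with cytoplasmic values of 225, 230 and 237 CPM in sgERH cells against 232, 232 and 231 CPM in sgAAVS1 cells. Of 51 SR protein, hnRNP and CLK genes none was called. SRSF4 (-0.79) and TIA1 (-0.98), the 2 with the smallest p, were lower in sgERH nuclei by -1.11 and -1.27.

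Of 51 interferon-stimulated genes 19 rose in the nucleus and 11 in the cytoplasm and none fell, where 6.95% and 5.22% of all genes rose. Their medians were 0.93 in the nucleus and 0.32 in the cytoplasm, and in each fraction most members were not called. For the shift 3 were called towards the nucleus, SAMD9, ISG15, a ubiquitin-like modifier (1.56 ± 0.19), and PARP12, an ADP-ribosyltransferase (1.20 ± 0.11). ISG15 had 13.6, 12.9 and 14.3 CPM in sgERH nuclei against 3.46, 5.29 and 3.45 CPM in sgAAVS1 nuclei, and 31.6, 38.0 and 33.3 CPM in sgERH cytoplasm against 30.8, 30.4 and 29.0 CPM in sgAAVS1 cytoplasm. IRF9, the DNA-binding subunit of the interferon-activated factor ISGF3, shifted towards the cytoplasm (-1.09 ± 0.19) and was the only one of 19 interferon-gamma pathway genes called. It was not called with a length offset (-0.80) or without sgERH cytoplasmic replicate 2 (-0.96).

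A list of 13 non-coding RNAs, several of them known for staying in the nucleus, had a median shift of -0.24, with medians of -0.25 in the nucleus and 0.50 in the cytoplasm, and 3 were called towards the cytoplasm. MALAT1 had 3195, 4387 and 3949 CPM in sgERH nuclei against 5683, 5829 and 6442 CPM in sgAAVS1 nuclei, and 325, 369 and 347 CPM in sgERH cytoplasm against 256, 217 and 264 CPM in sgAAVS1 cytoplasm (-1.14 ± 0.15, edgeR adjusted p = 3.65e-05). KCNQ1OT1, an antisense RNA over KCNQ1 whose reads cannot be told apart from its host without strand, shifted by -1.66 ± 0.20, and DLEU2, a microRNA host, by -1.14 ± 0.20. NEAT1, the scaffold of paraspeckles, shifted by -0.74 and was not called. NORAD, which is known as a mainly cytoplasmic RNA although it was placed on this list, shifted by 0.71 and was not called. These values stand beside the higher nuclear marker sum in sgERH cytoplasm, which includes some of these RNAs. Among RNAs gathered by name after their values were seen, MIR...HG host transcripts had 6 of 35 called towards the cytoplasm and none the other way (median -0.51). LINC transcripts had 21 towards the cytoplasm and 6 towards the nucleus of 296, and antisense transcripts 30 and 20 of 569. Of all 3588 lncRNA genes tested, 219 were called towards the cytoplasm and 92 towards the nucleus. The antisense counts rest on reads without strand, which cannot be told apart from those of overlapping genes.

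The remaining lists gave few calls. Of 35 replication-dependent histone genes 4 shifted towards the nucleus (median 0.53), and values in this poly(A) RNA were low, with H4C3 at 0.635 to 1.34 CPM in sgERH nuclei against 0.0353 to 0.197 CPM in sgAAVS1 nuclei. Of 27 cholesterol synthesis genes 2 shifted towards the nucleus, CYP51A1 and the mevalonate-pathway enzyme PMVK (1.30 ± 0.27). Of 45 immediate early genes 3 did so, against 1 without sgAAVS1 cytoplasmic replicate 2 and 6 without sgERH nuclear replicate 3. The other list counts of at most 5 moved by at most 3 genes when single libraries were left out. Of 32 p53 targets 2 shifted towards the cytoplasm, led by ZMAT3, a zinc-finger RNA-binding protein, with 58.9, 60.8 and 53.5 CPM in sgERH cytoplasm against 19.5, 17.9 and 19.3 CPM in sgAAVS1 cytoplasm (-1.45 ± 0.11, edgeR adjusted p = 9.42e-07). EXOSC5, a subunit of the RNA exosome (1.24 ± 0.16), was the single call of 26 exosome and adaptor genes. CEP250, a centrosome linker protein, was the single call of 37 centrosome genes (-1.01 ± 0.15). Of 27 snoRNA host transcripts SNHG30 was called (1.04 ± 0.21). Of 30 secreted and extracellular matrix genes 1 shifted towards the nucleus and 2, with MMP19, towards the cytoplasm. No call was made among 44 NMD factors and targets (median -0.10), 32 ATF4 targets (median 0.40) or 29 nuclear pore genes (median 0.14).

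**Figure D3:**
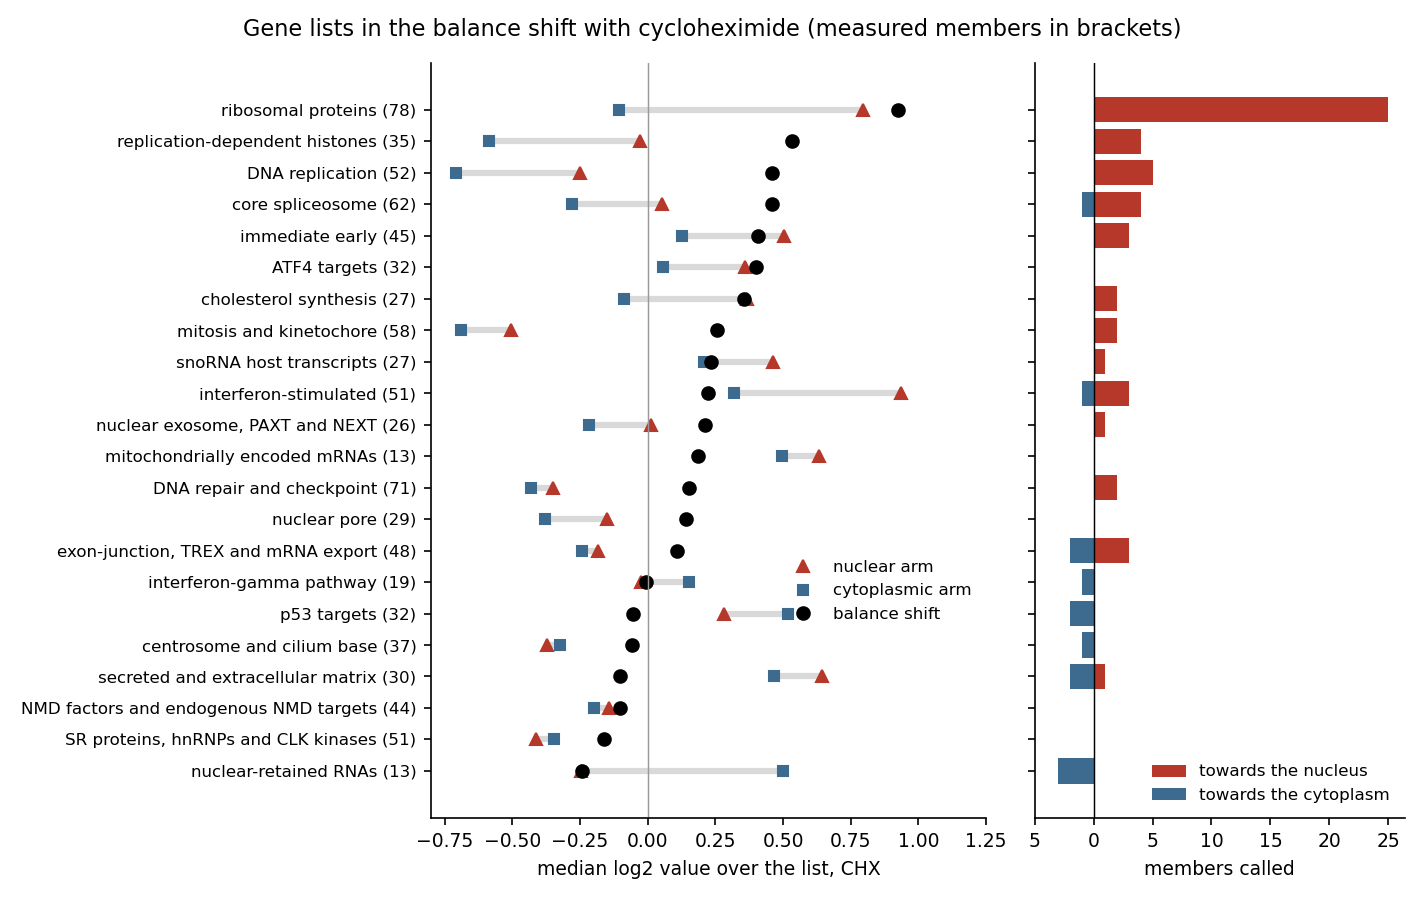
Left, the median over each gene list (rows) of the shift and of the change in the nucleus and in the cytoplasm with CHX (x axis, log2), and right, the number of members called towards the nucleus and towards the cytoplasm. The ribosomal protein genes have the highest median shift, 0.92, with 25 members called towards the nucleus, and the list named nuclear-retained RNAs has the lowest, -0.24, with 3 called towards the cytoplasm.

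Genes called in the 2 directions differed in features that the contrast did not use. Of those called towards the nucleus 76.4% were protein-coding and 15.1% lncRNA genes, against 50.2% and 36.3% of those called towards the cytoplasm and 73.0% and 20.2% of all genes tested. Their median exonic length was 1451 bases, against 2970 bases for the genes called towards the cytoplasm and 2650 bases for all. The median GC share of the transcript was 55.3% towards the nucleus, against 47.7% towards the cytoplasm and 48.5% for all. Over protein-coding genes the median shift was 0.63 for transcripts up to 1 kb, of which 135 of 787 were called towards the nucleus and 7 towards the cytoplasm. It was 0.34 from 1 to 2 kb, 0.20 from 2 to 3 kb, 0.10 from 3 to 4 kb, -0.00 from 4 to 5 kb and -0.13 over 5 kb, where 41 of 3446 were called towards the nucleus and 123 towards the cytoplasm. The shift thus declined with length in every step.

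The shift also varied with where the RNA lay in control cells. Genes were ranked by their balance in sgAAVS1 cells with DMSO, which shares no library with the contrast, and divided into 10 bins of equal size. In the most cytoplasmic bin the median shift was 0.68, with 289 of 1775 genes called towards the nucleus and 1 towards the cytoplasm. In the most nuclear bin it was -0.42, with 12 called towards the nucleus and 291 towards the cytoplasm. The medians of the bins between were 0.35, 0.21, 0.10, 0.02, -0.07, -0.20, -0.18 and -0.30. The change in the nucleus had medians of 0.54 in the most cytoplasmic and -0.23 in the most nuclear bin, and the change in the cytoplasm -0.12 and 0.15. Among protein-coding genes of at least 10 CPM the median shift was 0.72 in the most cytoplasmic bin, where 168 of 958 were called towards the nucleus, and -0.19 in the most nuclear bin.

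**Figure D4:**
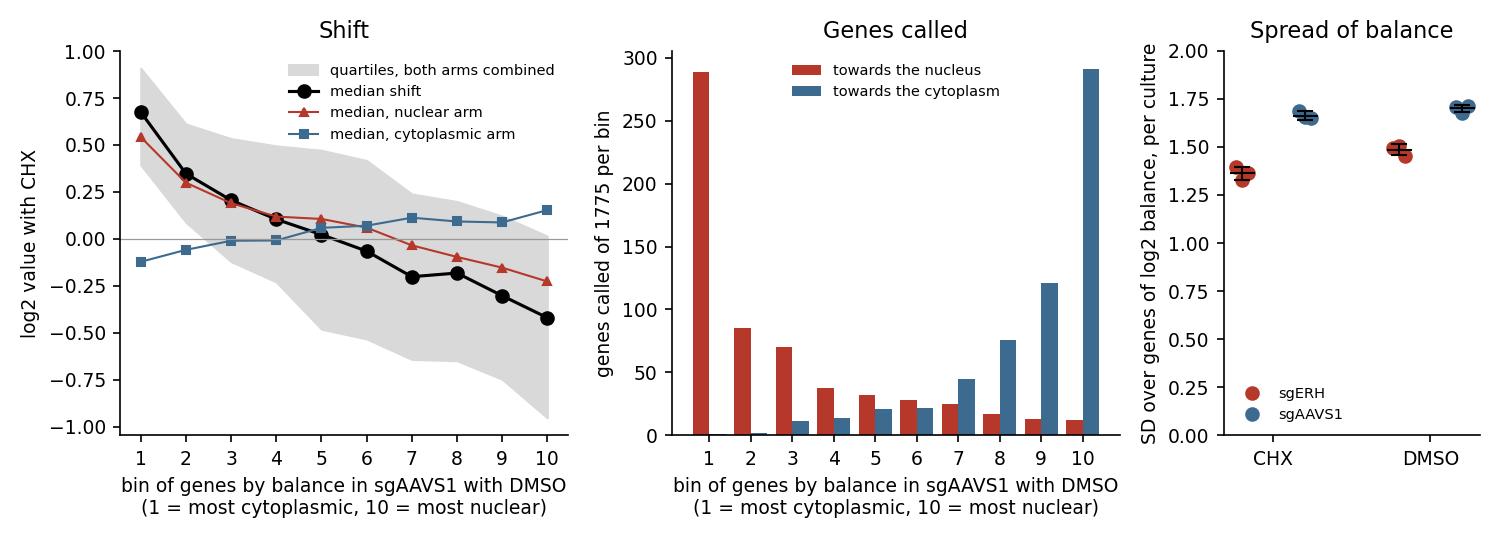
Shift with CHX (y axis, log2) by bin of the nuclear over cytoplasmic balance in sgAAVS1 cells with DMSO (x axis, most cytoplasmic bin first), with the median and quartiles of each bin and the medians of both arms, then the genes called per bin, and the SD of the balance over genes in each culture with the mean and SD of 3. The median is 0.68 in the most cytoplasmic bin and -0.42 in the most nuclear bin, and the sgERH cultures have the lower SD with either treatment.

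The balance was spread less widely across genes in sgERH cells. Over 11299 genes of at least 5 CPM, the SD of the balance across genes was 1.40, 1.33 and 1.36 in the 3 sgERH cultures with CHX, against 1.69, 1.65 and 1.65 in the sgAAVS1 cultures. The distance between the 10th and 90th percentile was 3.34 ± 0.0807 in sgERH and 4.15 ± 0.0589 in sgAAVS1 cultures (SD, n = 3 each). With DMSO it was 3.75 ± 0.0783 in sgERH and 4.33 ± 0.0632 in sgAAVS1 cultures. The groups did not overlap with either treatment, and an exact permutation test of 3 against 3 cannot go below p = 0.1. Beside this result, the cytoplasmic marker sum was higher in sgERH nuclei and the nuclear marker sum higher in sgERH cytoplasm, with the ranges given above, and the part of fraction purity in it was not tested.

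With CHX, more retained introns and the shift towards the nucleus overlapped in few genes, and the DMSO shift of the genes with such introns is given below. Of 367 genes called towards the nucleus with an intron tested in CHX nuclei, 10 (2.72%) had an intron retained more in sgERH cells, against 13 of 229 genes (5.68%) called towards the cytoplasm and 407 of 10787 genes (3.77%) in all. By arm, they were 4 of 17 genes that fell in the cytoplasm alone, 6 of 199 with neither arm called, and none of 147 that rose in the nucleus alone. Among them, named after their values were seen, were TOP2B, TDRD7, PSMD5, IFT81, ZMYM4, DYNC2H1, LRBA and EFCAB7, and of these named genes all but PSMD5 had a cytoplasmic change between -0.49 and -1.19. DYNC2H1, the motor of retrograde ciliary transport, had 38.6, 30.6 and 32.9 CPM in sgERH cytoplasm against 70.1, 67.2 and 67.1 CPM in sgAAVS1 cytoplasm, and a shift of 1.16 ± 0.12. The guides did not overlap there. Of its 52 tested introns 5 were retained more and none less in sgERH nuclei, of which intron 42 (chr11:103186502-103187339, plus strand) had IR ratios of 0.285, 0.330 and 0.439 in sgERH nuclei against 0.032, 0.016 and 0.082 in sgAAVS1 nuclei. Intron 42 was the only one of the 5 to keep its call without sgAAVS1 nuclear replicate 3. Other named genes also had introns retained less: ZMYM4 had 1 more and 4 less, PSMD5 1 and 2, EFCAB7 2 and 2, LRBA 2 and 1 and IFT81 1 and 1. Of all 10787 genes with an intron tested there, 6596 (61.1%) had an intron retained less. Of these named genes TOP2B and DYNC2H1 kept a retained intron without any single library. The introns of EFCAB7, ZMYM4, PSMD5, IFT81, LRBA and TDRD7 lost the call without sgAAVS1 nuclear replicate 1, 2 or 3 in at least 1 case each, and in EFCAB7 intron 10 did so without any of the 6 nuclear libraries. The shift itself also lost its call under some of 26 alternatives, in 17 for ZMYM4 (1.01, down to 0.66 with a length offset), in 7 for EFCAB7 (without sgAAVS1 nuclear replicate 3 or sgERH nuclear replicate 1 among them), in 3 for LRBA (without sgERH cytoplasmic replicate 2 or nuclear replicate 3, or with a length offset), in 2 for PSMD5 (both without sgERH nuclear replicate 2) and in 1 for DYNC2H1 (0.74 with a length offset).

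The 407 genes with an intron retained more had a median shift of 0.03, with medians of -0.21 in the nucleus and -0.19 in the cytoplasm. Of them 23 (5.65%) fell in the cytoplasm, against 98 of 10380 genes (0.944%) without such an intron. With CHX 10 of the 407 were called towards the nucleus, against 357 of the 10380. With DMSO the median shift of the 407 genes was 0.21, with 34 called towards the nucleus and 9 towards the cytoplasm. The 10380 genes had a median of 0.01 with DMSO, with 127 and 222 called. BRIP1, a helicase of the Fanconi pathway, is an example without a shift towards the nucleus. Its intron 11 (chr17:61781006-61784269, minus strand) averaged an IR ratio of 0.263 in sgERH nuclei against 0.037 in sgAAVS1 nuclei. It had 157, 177 and 168 CPM in sgERH nuclei against 479, 426 and 468 CPM in sgAAVS1 nuclei, and 47.9, 47.9 and 43.7 CPM in sgERH cytoplasm against 81.4, 82.6 and 80.6 CPM in sgAAVS1 cytoplasm. Both fractions were lower in every sgERH library, and the shift was -0.64 ± 0.10.

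The same contrast in DMSO, on other libraries, gave 264 genes towards the nucleus and 749 towards the cytoplasm of 18490 tested (5.48%, with 1.43% and 4.05% in the 2 directions) and a median of -0.06. Of the genes called towards the nucleus with CHX, 534 of 609 also measured with DMSO were above 0 there (median 0.63), 88 were called in the same direction and 5 in the opposite one. Of those called towards the cytoplasm, 62 of 604 were above 0 (median -0.90), 217 were called in the same direction and 2 in the opposite one. Across 11299 genes of at least 5 CPM the Pearson correlation of the 2 shifts was 0.60, as a description across genes that are not independent. The difference of the shifts, CHX minus DMSO, was called higher for 265 genes and lower for 132 (2.15%, with 1.43% and 0.714%), with a median of 0.11. With DESeq2 size factors the split was 213 higher and 170 lower.

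The transcripts the study followed were among those that differed. The shift of JAK2 was 0.68 with CHX and 1.83 ± 0.14 with DMSO, a difference of -1.15 ± 0.19 (edgeR adjusted p = 3.48e-04). Its DMSO balance was 1.70, 1.95 and 2.11 in sgERH cultures against 0.30, -0.09 and 0.24 in sgAAVS1 cultures. The sgERH cultures thus stood at overlapping balances with either treatment, while the sgAAVS1 cultures stood at 1.06 to 1.29 with CHX and -0.09 to 0.30 with DMSO. For PIK3C2A the CHX balances were 1.57, 1.95 and 1.72 in sgERH cultures against 1.28, 1.31 and 1.45 in sgAAVS1 cultures. With DMSO they were 1.39, 1.54 and 1.49 in sgERH cultures against -0.46, -0.47 and -0.34 in sgAAVS1 cultures (difference -1.52 ± 0.14, edgeR adjusted p = 2.55e-07). For HSPA4L the difference was -1.09 ± 0.16 (edgeR adjusted p = 6.17e-05). In all 3 the smaller shift with CHX went with a higher balance of the sgAAVS1 cultures. GADD45A went the other way, with a shift of 0.66 with CHX and -1.17 ± 0.15 with DMSO (difference 1.83 ± 0.21, edgeR adjusted p = 2.63e-06). Its CHX balances were -1.95, -1.73 and -2.19 in sgERH cultures against -2.68, -2.60 and -2.52 in sgAAVS1 cultures. With DMSO they were -1.04, -1.19 and -1.11 in sgERH cultures against -0.02, 0.10 and 0.09 in sgAAVS1 cultures.

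Of 263 genes measured in both fits whose shift was higher with CHX, 224 were above 0 with CHX and 241 below 0 with DMSO. The genes were called on the difference of these shifts, which favours such signs, so the counts are a description only. The list of NMD factors and targets and the list of snoRNA hosts both include RNAs degraded by NMD, and the first also holds genes of the NMD machinery. The genes of these lists had median shifts of -0.10 and 0.23 with CHX and -0.23 and -0.70 with DMSO. None of them was called towards the cytoplasm with CHX, where 3.4% of all genes were. With DMSO 7 of 44 and 8 of 27 were, against 4.05% of all genes. Of the NMD list 8 genes had a higher shift with CHX, where 1.43% of all genes did. Among them were UPF3B, an NMD factor (1.20), the stress transcription factors ATF4 (1.39) and ATF3 (1.13), and GADD45B (1.26). Of the snoRNA hosts 6 had a higher shift, among them EPB41L4A-AS1 (1.91), SNHG8 (1.61), SNHG32 (1.57) and ZFAS1 (1.24). These genes were chosen after their values were seen. ATF4 with CHX had 620, 655 and 607 CPM in sgERH cytoplasm against 831, 857 and 825 CPM in sgAAVS1 cytoplasm and a shift of 0.58.

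Of the 132 genes whose shift was lower with CHX, 21 were above 0 with CHX and 106 with DMSO. These signs too are favoured by calling on the difference and are a description only. KIF20B, a mitotic kinesin, had a difference of -1.75 (edgeR adjusted p = 3.87e-07). With CHX it had 190, 227 and 233 CPM in sgERH nuclei against 491, 466 and 522 CPM in sgAAVS1 nuclei, and 112, 108 and 108 CPM in sgERH cytoplasm against 212, 198 and 205 CPM in sgAAVS1 cytoplasm. It was lower in both fractions with CHX and its shift was -0.28, against 1.46 with DMSO. FLNA, the actin cross-linker filamin A, had a shift of -1.02 with CHX and 0.69 with DMSO (difference -1.71, edgeR adjusted p = 1.16e-04). Of the 71 DNA repair and checkpoint genes 5 had a lower shift with CHX and none a higher one, against 0.714% and 1.43% of all genes. The median difference of the list was 0.06. The 5 were BRIP1 (-1.08), RAD50 (-1.0003), FANCM (-1.27), BLM (-1.05) and ERCC4 (-1.33). Of the 4 named by the size of a lower difference, MIR600HG (-2.53) and CDK3 (-9.27) lay below KIF20B. The 4 largest higher differences, of TBC1D3L, HERC2P3, TIMM23B-AGAP6 and SULT1A3, belong to genes with near-identical copies or read-through and are uncertain.

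**Figure D5:**
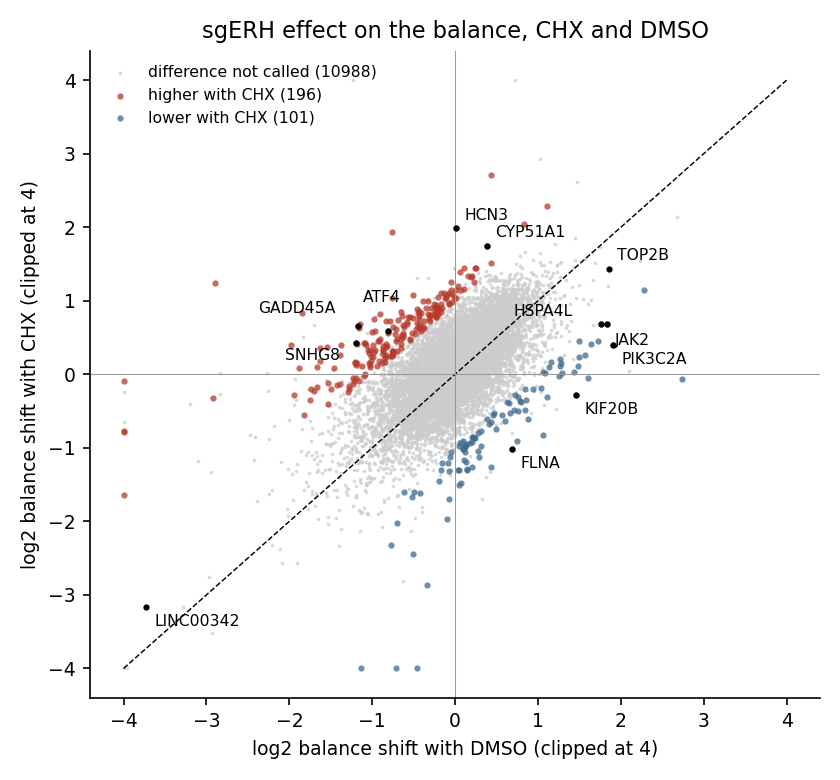
Shift with DMSO (x axis) against shift with CHX (y axis), both log2, for genes of at least 5 CPM, with the genes whose difference was called marked by direction, values beyond 4 drawn at 4 and a dashed line where both are equal. JAK2, PIK3C2A and HSPA4L lie to the right of the diagonal (0.68, 0.40 and 0.68 with CHX, against 1.83, 1.91 and 1.76 with DMSO) and GADD45A lies to its left.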

How the data were processed

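Nuclear and cytoplasmic poly(A) RNA of RKO-iCas9 cells was sequenced by the authors in 24 libraries, 3 per guide, fraction and treatment. The cells were lysed gently in a buffer with 0.1% NP-40, and nuclei were pelleted from the cytoplasm. Reads were processed by the authors with nf-core/rnaseq, in which salmon gave an estimated count and an effective length for each transcript. These deposited expected counts were not normalized. The submitters' processing notes name GRCh38, fastp 0.23.4, SAMtools 1.16.1 and Subread 2.0.1 among other tools. A deposited TPM table was not used.

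Intron retention tables were made by the authors with IRFinder-S. They hold per intron the intron depth, a trimmed mean coverage signal, the deposited counts of reads spliced at each end and of reads crossing an intron end, and the IR ratio, a fraction from 0 to 1.

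Transcript counts were summed per gene and rounded (62700 of 62754 genes matched to GENCODE). Library totals set the precision, most tightly for abundant genes. Genes passed the edgeR filter at a minimum count of 10. The 12 CHX libraries were fitted with 1 coefficient per group in edgeR 4.0.16 under R 4.3.3, with TMM scaling and a quasi-likelihood test, and p-values were adjusted by Benjamini-Hochberg over all genes tested. Calls needed an adjusted p up to 0.05 and a log2 value of 1 or more in size. The SE is the absolute log2 divided by the square root of the F statistic. The CHX minus DMSO difference was fitted on all 24 libraries in the same way. Introns were tested in edgeR as guide by read type (depth or spliced), with an intercept per library, where depth plus spliced reads averaged at least 10 and a group averaged a depth of at least 1. An intron was called only where the IR ratio of the group with more retention averaged 0.05 or more. Introns were numbered along the Ensembl canonical transcript, which covered 173155 of 233113 introns, and others were left without a number. The kit does not mark strand, so reads of overlapping antisense genes cannot be told apart.

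Named genes were the 10 the study followed, the 10 largest called shifts in each direction with at least 5 CPM, up to 3 called in each direction per gene list or the 2 smallest p where none was called, the 5 largest per class of arms, and the 4 largest CHX minus DMSO differences in each direction. Introns were named for the study's genes and, per named gene towards the nucleus, by the largest called change. Some named genes are not reported here. The members, lists and rules were chosen with earlier results of these data known. On simulated counts of 17390 genes the interaction test called 34.7% of genes changed by 1 on the log2 scale, 55.3% of those changed by 1.5 and 67.4% of those changed by 2. DESeq2 1.42.0 and limma-voom (limma 3.58.1), other scalings, filters, a length offset from the deposited effective lengths, replicate blocks and leaving out libraries served as alternatives.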

Additional observations from a re-analysis of the deposited data

Results flagged for a closer look

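The shift with CHX was compared with the shift with DMSO by testing their difference, CHX minus DMSO, in the fit on all 24 libraries (edgeR quasi-likelihood test). The difference was called for 397 genes, and the values of those named in the report are given here on the log2 scale.

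The transcripts the study followed had differences of -1.15 (JAK2), -1.52 (PIK3C2A), -1.09 (HSPA4L) and 1.83 (GADD45A). Among genes called towards the nucleus with CHX, the difference was above 0 for NTHL1 (1.21), KYAT1 (1.18), HCN3 (1.97) and CYP51A1 (1.36). Among genes called towards the cytoplasm with CHX it was below 0 for MIR600HG (-2.53), TNFRSF10D (-1.63), ZMAT3 (-1.26), MCM3AP (-1.13) and FLNA (-1.71). The value of CDK3 (-9.27) rests on libraries at 0 and is no measure of fold. KIF20B had a difference of -1.75.

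Over all genes tested 1.43% had a higher shift with CHX and 0.714% a lower one. Of 44 NMD factors and targets 8 had a higher shift with CHX and none a lower one, among them UPF3B (1.20), ATF4 (1.39), GADD45B (1.26) and ATF3 (1.13). Of 27 snoRNA hosts 6 did, ZFAS1 (1.24), SNHG8 (1.61), SNHG12 (1.06), SNHG29 (1.01), EPB41L4A-AS1 (1.91) and SNHG32 (1.57). Of 71 DNA repair and checkpoint genes, whose median difference was 0.06, 5 had a lower shift with CHX and none a higher one, RAD50 (-1.0003), BLM (-1.05), FANCM (-1.27), BRIP1 (-1.08) and ERCC4 (-1.33).

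Of 28 alternatives the called difference was lost in 13 for SNHG29, 11 for KYAT1, 10 for RAD50, 2 each for ATF3 and CDK3 and 1 each for UPF3B and HSPA4L. SNHG29 (0.95 to 1.07) and RAD50 (-1.13 to -0.91) lie at the fold threshold, and the adjusted p of KYAT1 reached 0.0843 (edgeR).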

How the results depend on the processing

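With all 12 libraries 1214 genes were called for the shift, and the count was within 1.5 times of that under every scaling, test, filter and block tried and in the fit on all 24 libraries (1086 with limma-voom to 1368 without a filter), the one exception being a filter of at least 1 CPM in all 12 libraries. That filter kept 11632 genes and gave 598 calls (299 in each direction), 710 in the nucleus against 1741 and 394 in the cytoplasm against 1173. The length offset gave 1126 calls, of which 879 were shared. With TMM computed within each fraction the split was 469 towards the nucleus and 700 towards the cytoplasm (40.1% against 50.2% towards the nucleus). Without TMM 1811 genes rose and 325 fell in the nucleus (84.8% against 70.9% higher), with a median of 0.24 over all genes. With DESeq2 size factors the CHX minus DMSO difference had 213 higher and 170 lower calls (55.6% against 66.8% higher).

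Leaving out 1 library or culture gave 1053 to 1472 calls for the shift, 1576 to 1980 in the nucleus, 1012 to 1261 in the cytoplasm, 858 to 1074 with DMSO and 347 to 465 for the difference. For introns it gave 5713 to 18790 calls in the nucleus and 138 to 287 in the cytoplasm, where 419 were called with all libraries. Cytoplasmic introns numbered 264 at an IR ratio of at least 0.1 (148 more and 116 less) and 197 with a replicate block on the read type (135 and 62).

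Same-numbered libraries correlated at -0.005 to 0.093 in their deviations from the group means, and libraries of unlike number at -0.087 to 0.011. For sgERH replicates 2 and 3 the same-numbered libraries had 0.079 and 0.093, and the crossed ones -0.080 and -0.087. The numbers were not taken to pair the samples in the tests of the shift. The balances per culture match libraries by number as a description only. The replicate block by culture gave 1144 calls, of which 1088 were shared, and the block by number 1190. The blocks gave 1691 calls in the nucleus, 1139 in the cytoplasm and 371 for the difference.

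Of 1334 values of the shift of named genes under settings other than leaving out libraries, 1267 kept direction and call, 66 lost the call and 1 changed sign, RAD50 at -0.10 with a length offset. Of 1352 values with libraries left out, 1259 kept both, 89 lost the call and 4 changed sign. These were all of IFNGR1, which was never called, at -0.01 without sgAAVS1 cytoplasmic replicate 3, -0.02 without sgAAVS1 nuclear replicate 1, -0.11 without sgERH nuclear replicate 2 and -0.16 without sgERH replicate 2 of both fractions. For the CHX minus DMSO difference of named genes 5 of 128 values lost the call under other settings and 35 of 768 with libraries left out. The causes were not tested. Fold sizes of genes under about 1 CPM are limited by depth.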
